A study of Mus musculus with 6 samples.

Results

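The 38 genes described here make the proteins that copy DNA in S phase, the stage of the cell cycle in which the genome is duplicated. They were chosen by name for their roles in replication, with earlier results of these data known. They are the MCM helicase subunits and their loaders, the GINS and Cdc45 helicase activators, the sliding clamp with its loader, the replicative polymerases and primase, the flap nuclease and ligase, the enzymes of deoxynucleotide supply, the E2F factors and E cyclins, and the checkpoint kinase Chek1 with Clspn. All 38 were found in the deposited table of 55401 mouse genes, and all 38 passed the filter on low counts that left 19717 genes for testing. RNA was measured in glomeruli, the filtering units of the kidney, in 3 DKD and 3 Control libraries. The series title gives DKD as diabetic kidney disease. The labels give DKD and Control as the genotype and name neither a strain, an age nor the way in which diabetes arose. They number the samples without saying that each is a separate animal, and a p-value here speaks only of how these libraries vary, which may be technical variation.

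Before S phase, Cdc6 and Cdt1 load the Mcm2 to Mcm7 ring onto origins of replication, a step called licensing, and geminin (Gmnn) holds Cdt1 back once S phase has begun. Cdc45, the GINS complex and Mcm10 then turn the ring into the working helicase, and the polymerases follow with the Pcna clamp. E2F transcription factors switch on many of these genes in late G1, whereas genes of mitosis are switched on later through a promoter element called the CHR. Most cells of the adult kidney are at rest, and podocytes, the cells that wrap the glomerular capillaries, rarely divide. In bulk RNA of this kind, fewer cells of a type and less RNA per cell cannot be told apart.

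The promoters were searched for these 2 kinds of control element. Windows of 300 bases, 250 before to 50 after the annotated start, came from RefSeq on GRCm38.p6, and 30 of the 38 genes matched one by symbol. The E2F motif was searched as TTTCCCGC, TTTGGCGC, TTTCGCGC and TTTGCCGC, and the CHR as TTTGAA, each on both strands. The first 3 sequences below carry E2F motifs in replication genes, and the other two carry CHR motifs in the mitosis genes Mki67 and Cdca3, which serve as a contrast further on. Each is written 5′ to 3′ on the strand of its gene, with the motif in capitals.
Mcm6, chr1:128359656-128359955, minus strand: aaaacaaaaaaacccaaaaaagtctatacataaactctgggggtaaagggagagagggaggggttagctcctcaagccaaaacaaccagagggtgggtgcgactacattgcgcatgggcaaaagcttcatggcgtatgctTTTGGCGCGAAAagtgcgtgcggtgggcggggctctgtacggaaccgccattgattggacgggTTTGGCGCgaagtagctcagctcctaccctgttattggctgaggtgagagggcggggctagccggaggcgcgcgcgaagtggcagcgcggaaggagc
Pold1, chr7:44548766-44549065, minus strand: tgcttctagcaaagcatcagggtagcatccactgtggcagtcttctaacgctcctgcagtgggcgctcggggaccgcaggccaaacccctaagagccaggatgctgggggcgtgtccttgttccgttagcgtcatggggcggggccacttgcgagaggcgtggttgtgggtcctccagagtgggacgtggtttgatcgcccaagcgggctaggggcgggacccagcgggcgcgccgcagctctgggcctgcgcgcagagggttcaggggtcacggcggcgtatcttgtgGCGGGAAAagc
Cdt1, chr8:122567765-122568064, plus strand: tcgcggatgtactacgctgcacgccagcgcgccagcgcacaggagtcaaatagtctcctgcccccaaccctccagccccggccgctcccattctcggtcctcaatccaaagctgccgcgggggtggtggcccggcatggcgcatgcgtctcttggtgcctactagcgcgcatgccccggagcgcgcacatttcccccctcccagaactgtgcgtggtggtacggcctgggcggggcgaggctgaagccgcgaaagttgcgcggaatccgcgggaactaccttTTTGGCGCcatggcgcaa
Mki67, chr7:135716330-135716629, minus strand: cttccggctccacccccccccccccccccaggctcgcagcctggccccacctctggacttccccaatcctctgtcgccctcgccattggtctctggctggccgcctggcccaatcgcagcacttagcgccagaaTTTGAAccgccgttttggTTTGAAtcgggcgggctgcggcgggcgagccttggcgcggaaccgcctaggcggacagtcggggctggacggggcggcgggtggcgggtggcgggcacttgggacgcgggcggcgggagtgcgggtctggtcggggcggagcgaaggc
Cdca3, chr6:124829926-124830225, plus strand: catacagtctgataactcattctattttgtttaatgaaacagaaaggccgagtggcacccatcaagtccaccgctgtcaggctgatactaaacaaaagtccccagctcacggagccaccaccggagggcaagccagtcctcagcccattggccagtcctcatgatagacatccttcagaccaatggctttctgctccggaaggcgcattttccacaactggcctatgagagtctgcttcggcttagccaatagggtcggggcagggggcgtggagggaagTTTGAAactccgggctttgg
In Mcm6, the first bases of the E2F motifs lay at −110, −106 and −47 relative to the start, and the first pair overlapped on opposite strands. Pold1 had its motif at 40 and Cdt1 at 33 bases after the start. An E2F motif was present in 12 of the 30 replication gene windows (40.0%), in 1 of 31 mitosis gene windows (3.23%) and in 626 of all 27025 windows (2.32%). The CHR letters were in 5 of the 30 replication gene windows (16.7%), in 23 of 31 mitosis gene windows (74.2%) and in 4893 of all windows (18.1%). The CCAAT box, searched as CCAAT on both strands, was in 18 of the 30 replication gene windows (60.0%), 24 of the 31 mitosis gene windows (77.4%) and 37.9% of all windows. These matches describe letters in a window, and binding was not measured. Mcm3, Mcm5, Mcm7, Cdc6, Gins3, Rfc3, Pola1, E2f2 and Clspn also held an E2F motif. No E2F motif was found in the windows of E2f1, Ccne1, Rrm2, Tk1, Lig1, Mcm10 and Rfc1, and Gmnn had no window. A link between motifs and fold changes was not tested.

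No replication gene passed the threshold, and the groups overlapped in 29 of the 38. The median log2 fold change (DKD over Control) of the 38 genes was 0.21, against 0.0029 over all 19717 genes, and 15 of the 38 lay within 0.25 of 0. Above 0 were 28 genes and below 0 were 10, with a range of −0.69 for Mcm10 to 1.62 for Ccne1. None of the 38 passed an adjusted p of 0.05 in edgeR's quasi-likelihood test, in either direction, where 1.16% of all genes did (0.725% higher and 0.431% lower in DKD). At an unadjusted p under 0.05, 6 of the 38 were higher and 1 was lower, which is 18.4% of the list against 22.6% of all genes (11.8% higher, 10.9% lower). In 6 genes (15.8%) every DKD library was above every Control library, that is, E2f1, Ccne1, Gmnn, Rrm2, Tk1 and Lig1. This share was near the background of 15.5%. In 3 genes (7.89%), Mcm6, Mcm10 and Rfc1, every DKD library was below every Control library, against 15.2% of all genes, and the other 29 overlapped. DESeq2, run as an alternative on the same counts, called E2f1, Ccne1, Gmnn and Rrm2 higher and Mcm6 lower, where it called 7.46% of all genes higher and 6.2% lower. Limma-voom, another alternative, called 0 of the 38. With a filter of at least 1 CPM in 3 libraries, edgeR called E2f1 and Gmnn higher, where 2.14% of all genes were called higher and 1.29% lower. That filter left 34 of the 38 for testing, without Ccne1, Cdc6, E2f8 and Clspn.

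**Figure D1:**
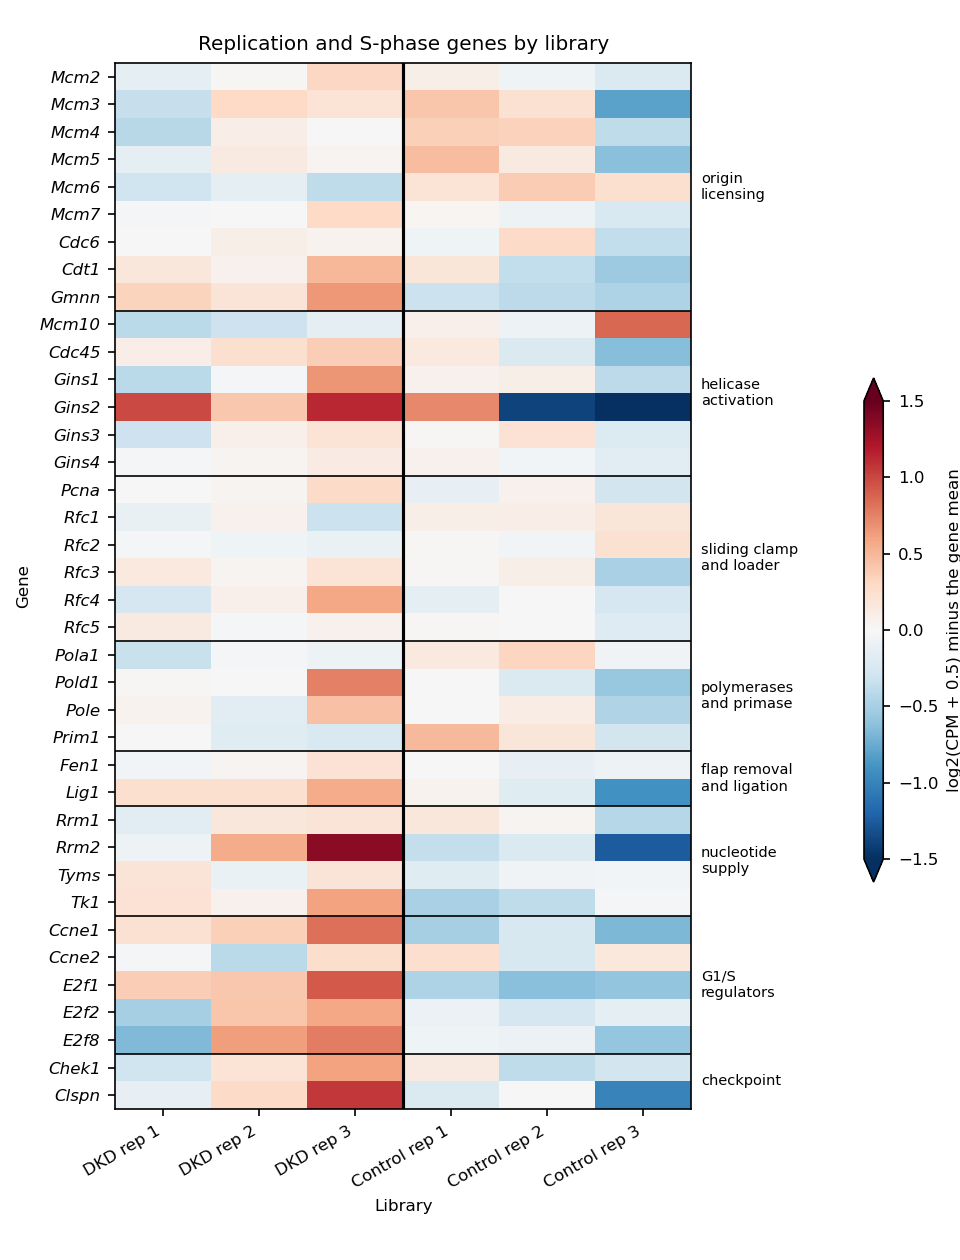
The 38 replication genes in the 6 libraries, as log2(CPM + 0.5) minus the gene's mean over all libraries, with genes grouped by role. DKD libraries are the left columns and Control libraries the right, and colours saturate beyond 1.5 in either direction. DKD replicate 3 was the highest library in 26 of the 38 genes and Control replicate 3 the lowest in 21.

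Counts ran from 71154026 to 83576494 per library, and the replication genes had 5 to 3356 counts in any library, with at least 100 in every library for 30 of them. Levels are in CPM, library-size-scaled counts with TMM factors, and each ± beside a level is an SD with n = 3 per group. Each ± beside a log2 fold change is a standard error. Control replicate 3 stood apart from its group, with a first principal component score of −101 in log CPM, against −18.0 and −15.0 for the other Control libraries. DKD replicate 3 also lay apart from its group on this component, at 79.7 against 27.1 and 27.5 for DKD replicates 1 and 2. Within the DKD group, replicate 3 was above both other libraries in 28 of the 38 genes, with a median ratio to their mean of 1.25. Within the Control group, replicate 3 was below both others in 27 of the 38, with a median ratio of 0.776. The summed level of the 38 genes was 351.0, 363.6 and 426.2 CPM in the DKD libraries and 362.3, 341.3 and 303.9 CPM in the Control libraries. Leaving out DKD replicate 3 gave a median log2 fold change of 0.09, leaving out Control replicate 3 gave 0.11, and leaving out Control replicate 2 gave 0.34.

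The 5 regulators of the step from G1 into S phase, among them the repressor E2f8, had a median log2 fold change of 1.02, with a range of −0.14 to 1.62. That median was the value of E2f8, in which the groups overlapped. The groups did not overlap in E2f1 and Ccne1. Values over 1 also occurred outside this role, in Clspn, Rrm2 and Gins2, and the roles were not tested against each other. E2f1 (ENSMUSG00000027490), the transcription factor that activates many replication genes at the G1/S boundary, had 6.60, 6.75 and 9.87 CPM in DKD libraries 1 to 3, against 3.48, 3.06 and 3.15 CPM in Control libraries 1 to 3. The lowest DKD library was well above the highest Control library. The means were 7.74 ± 1.85 CPM in DKD and 3.23 ± 0.221 CPM in Control, and the log2 fold change was 1.26 ± 0.23 (edgeR adjusted p = 0.0560). DESeq2 gave E2f1 an adjusted p of 2.15e-05, and edgeR with the 1 CPM filter gave 0.0460.

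Ccne1 (ENSMUSG00000002068) makes cyclin E1, which with Cdk2 drives the G1/S step. It had 0.956, 1.09 and 1.71 CPM in DKD libraries and 0.383, 0.556 and 0.278 CPM in Control libraries. The groups did not overlap, and the level was low in all 6 libraries. The means were 1.25 ± 0.402 CPM in DKD and 0.405 ± 0.141 CPM in Control, and the log2 fold change was 1.62 ± 0.44 (edgeR adjusted p = 0.0972). Its DESeq2 adjusted p was 0.0119. The second E cyclin, Ccne2, differed little between the groups, at 1.07 ± 0.362 CPM in DKD and 1.18 ± 0.292 CPM in Control (log2 fold change −0.14 ± 0.39, edgeR adjusted p = 0.867). Of its exonic bases 17.4% lie opposite Ints8, and the strand setting of the counting is not known from the sources.

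The other E2F genes overlapped between the groups. E2f2, an activator like E2f1, had 1.93, 4.04 and 4.60 CPM in DKD and 2.70, 2.36 and 2.59 CPM in Control, so DKD replicate 1 was the lowest of the 6 libraries. Its log2 fold change was 0.47 ± 0.35 (edgeR adjusted p = 0.475). E2f8, a repressor of E2F targets, had 0.224, 1.27 and 1.44 CPM in DKD and 0.598, 0.581 and 0.264 CPM in Control. Here too DKD replicate 1 was the lowest library, and the log2 fold change of 1.02 ± 0.70 had an edgeR adjusted p of 0.432. Of the exonic bases of E2f8 11.21% lie opposite Gm2788.

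**Figure D2:**
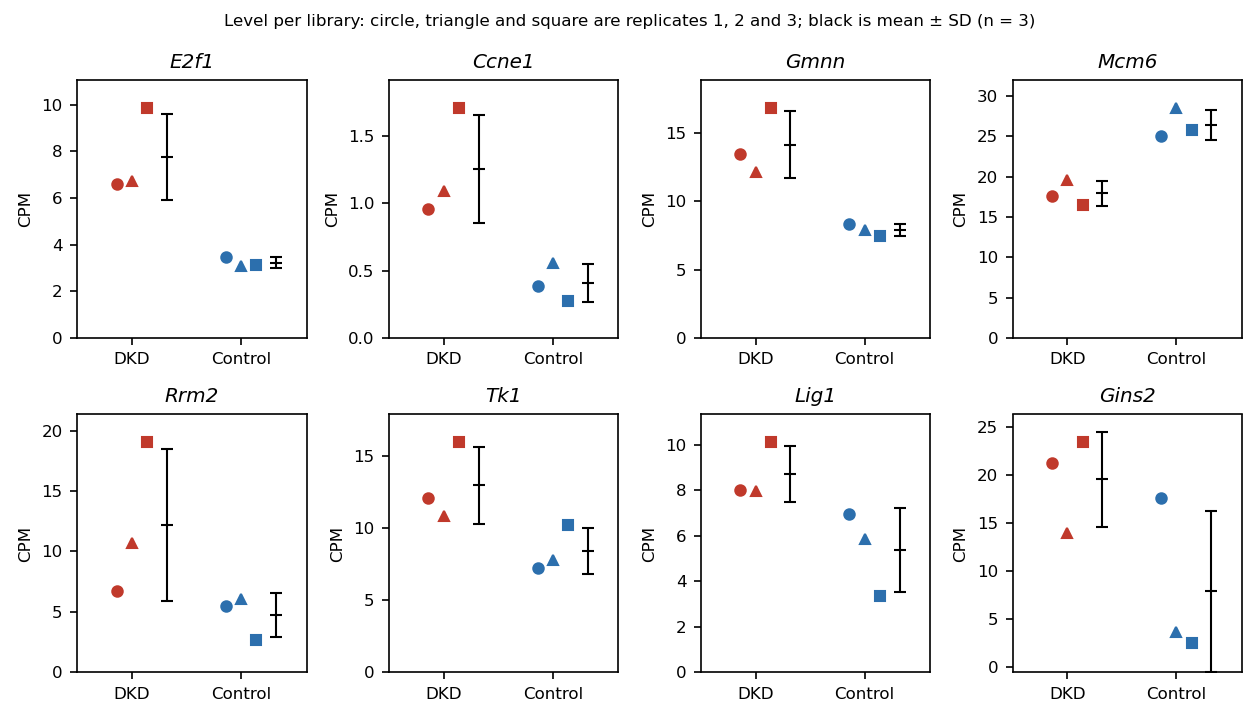
CPM in each library for 8 replication genes, DKD on the left and Control on the right of each panel, with points for libraries and bars for the mean ± SD (n = 3 per group). E2f1, Ccne1, Gmnn, Rrm2, Tk1 and Lig1 were higher in every DKD library than in every Control library and Mcm6 was lower, while Gins2 overlapped.

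Among the licensing genes, geminin was higher and Mcm6 lower in DKD without overlap, and the groups overlapped in the other subunits of the MCM ring. Gmnn (ENSMUSG00000006715) had 13.4, 12.1 and 16.9 CPM in DKD libraries and 8.32, 7.89 and 7.48 CPM in Control libraries. Each DKD library was above each Control library. The means were 14.1 ± 2.44 CPM in DKD and 7.90 ± 0.422 CPM in Control, and the log2 fold change was 0.84 ± 0.17 (edgeR adjusted p = 0.0600). The adjusted p was 0.000429 in DESeq2 and 0.0490 with the 1 CPM filter. After removal of a trend on transcript length in each library, the log2 fold change of Gmnn was 0.55.

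Mcm6 (ENSMUSG00000026355) is one of the 6 subunits of the helicase ring, and its promoter above holds 3 E2F motifs. It had 17.6, 19.6 and 16.5 CPM in DKD and 25.0, 28.6 and 25.8 CPM in Control, with all DKD libraries below all Control libraries. The means were 17.9 ± 1.56 CPM in DKD and 26.4 ± 1.86 CPM in Control, a log2 fold change of −0.56 ± 0.12 (edgeR adjusted p = 0.0633, DESeq2 adjusted p = 0.00218). The remaining subunits lay on both sides of 0. The log2 fold changes were 0.14 ± 0.17 for Mcm2, 0.04 ± 0.38 for Mcm3, −0.25 ± 0.26 for Mcm4, −0.04 ± 0.31 for Mcm5 and 0.19 ± 0.14 for Mcm7, with edgeR adjusted p between 0.452 and 0.966. Each of these 5 overlapped between the groups. With each library left out in turn, the log2 fold change ran from −0.28 to 0.30 for Mcm3 and from −0.47 to −0.11 for Mcm4. It ran from −0.31 to 0.23 for Mcm5, from −0.0036 to 0.24 for Mcm2 and from 0.08 to 0.25 for Mcm7. In Mcm2, for example, DKD libraries had 12.8, 14.4 and 17.8 CPM and Control libraries 15.2, 13.6 and 12.1 CPM.

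The MCM ring holds 1 copy of each subunit, so the share of each transcript was also computed per kilobase of the longest coding transcript. On this scale Mcm6 made up 20.4%, 19.8% and 15.5% of the Mcm2 to Mcm7 level in DKD libraries and 22.4%, 26.6% and 30.1% in Control libraries. The groups did not overlap in this share, with a mean of 18.6% ± 2.64 in DKD and 26.4% ± 3.81 in Control. Mcm7 held the largest share in both groups, 37.0% ± 2.81 in DKD and 31.2% ± 1.86 in Control, with a lowest DKD library of 33.8% and a highest Control library of 33.3%. Mcm7 shares 26.8% of its 31-base words with other genes, mostly the pseudogene Gm5487, which had 0 to 16 counts per library against 1470 to 2004 for Mcm7. The share of Mcm2 did not overlap either, with a lowest DKD library of 18.75% and a highest Control library of 18.31%. The shares add up to the whole, so a lower share of 1 subunit raises the shares of the others. These shares were not tested, and a share shows only that the subunits differed from each other.

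The loaders of the ring gave no call. Cdt1, which brings the ring to the origin and whose promoter is printed above, had 6.78, 6.29 and 8.65 CPM in DKD and 6.84, 4.52 and 3.95 CPM in Control. Control replicate 1 lay among the DKD values, and the log2 fold change was 0.50 ± 0.27 (edgeR adjusted p = 0.309). Cdc6, the ATPase that works with Cdt1, was among the lowest of the 38 genes per kilobase, at 0.178 CPM per kilobase in DKD and 0.164 in Control, with a log2 fold change of 0.12 ± 0.40.

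The helicase activators gave 1 gene without overlap, Mcm10, on the lower side. Mcm10 (ENSMUSG00000026669), which helps the assembled helicase to start, had 3.65, 3.91 and 4.46 CPM in DKD and 5.29, 4.70 and 9.46 CPM in Control. Control replicate 3 was far above every other library, and without it the log2 fold change was −0.32, against −0.69 ± 0.30 with all libraries (edgeR adjusted p = 0.231). Gins2 (ENSMUSG00000031821), a subunit of the GINS complex, had 21.2, 14.0 and 23.5 CPM in DKD and 17.6, 3.68 and 2.51 CPM in Control. Control replicate 1 lay inside the DKD range, and the log2 fold change of 1.30 ± 0.69 (edgeR adjusted p = 0.309) became 2.66 without that library and 0.88 without Control replicate 3. Of the exonic bases of Gins2 67.3% lie opposite Gse1, which had 23.4 to 31.9 CPM in DKD and 27.6 to 36.8 CPM in Control, and without strand the reads of the 2 genes cannot be told apart.

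The other GINS subunits and Cdc45 overlapped between the groups. Gins4 was the steadiest, with 12.6, 13.2 and 14.0 CPM in DKD and 13.4, 12.4 and 11.5 CPM in Control (log2 fold change 0.09 ± 0.13). Gins1 and Gins3 had log2 fold changes of 0.29 ± 0.46 and −0.02 ± 0.30. Cdc45, the partner of the ring in the moving helicase, had 2.48, 2.77 and 3.07 CPM in DKD and 2.57, 1.89 and 1.28 CPM in Control. DKD replicate 1 was below Control replicate 1, and the log2 fold change of Cdc45 was 0.53 ± 0.32 (edgeR adjusted p = 0.370).

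**Figure D3:**
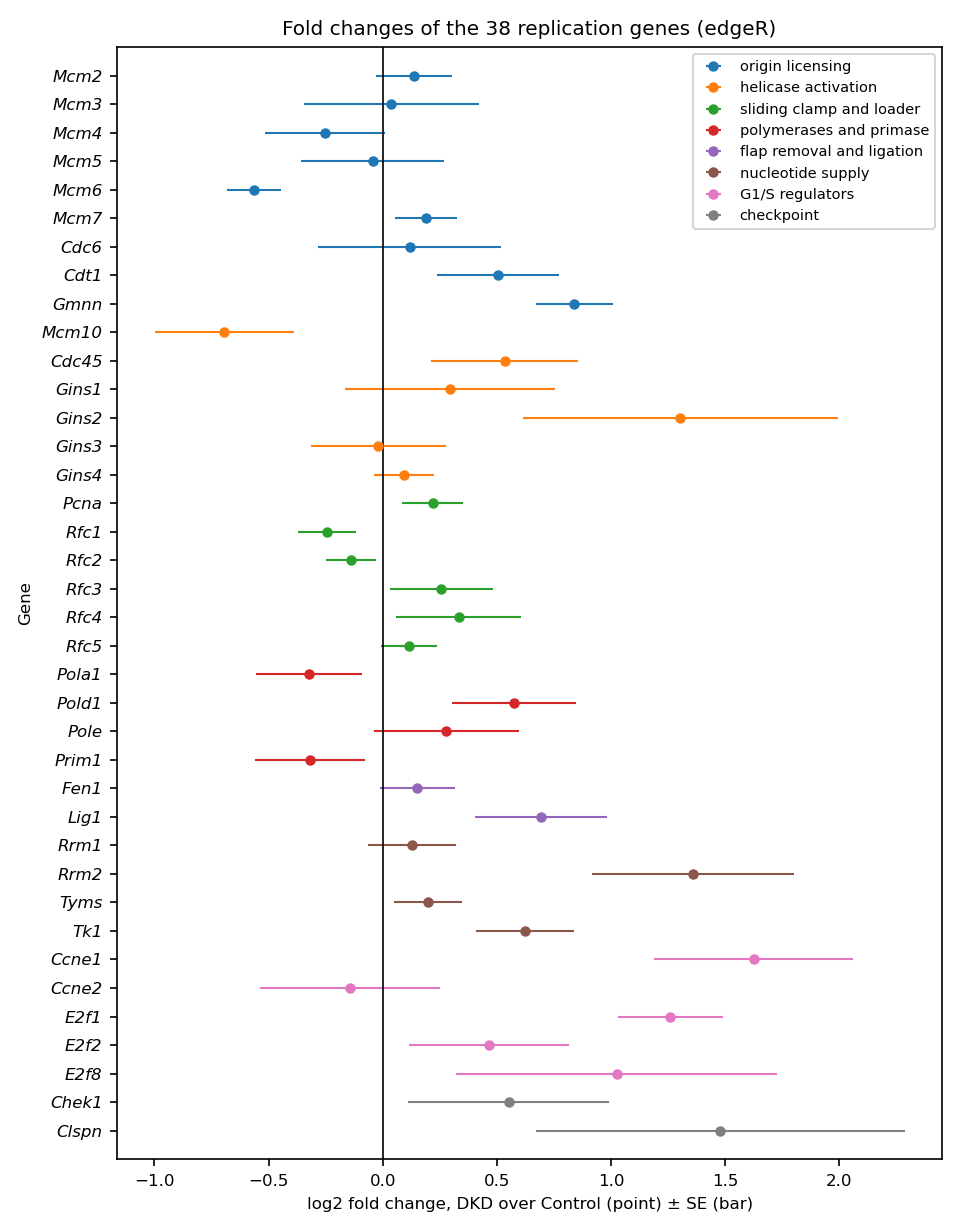
Log2 fold change (DKD over Control) of each of the 38 replication genes with its standard error, ordered by role, from edgeR's quasi-likelihood test on 3 libraries per group. Ccne1 had the highest value at 1.62 and Mcm10 the lowest at −0.69, and no gene passed an adjusted p of 0.05.

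The clamp and its loader had small fold changes, with a median of 0.17 over 6 genes. Pcna, the sliding clamp that holds polymerases on DNA, was the most abundant of the 38 genes per kilobase, at 27.5 CPM per kilobase in DKD and 23.6 in Control. It had 38.7, 39.6 and 47.0 CPM in DKD and 35.4, 40.5 and 31.8 CPM in Control, so the groups overlapped. The log2 fold change was 0.22 ± 0.13 (edgeR adjusted p = 0.376), and it was 0.01 after removal of the length trend. Of its 31-base words 23.3% occur in other genes, mostly Pcna-ps2, which had 30 to 50 counts per library against 2404 to 3356 for Pcna. Rfc1 (ENSMUSG00000029191), the large subunit of the clamp loader, had 22.6, 25.6 and 19.5 CPM in DKD and 26.1, 26.3 and 27.8 CPM in Control. All DKD libraries were below all Control libraries by a small margin, with a log2 fold change of −0.24 ± 0.13 (edgeR adjusted p = 0.307), or −0.15 without DKD replicate 3. The small subunits Rfc2, Rfc3, Rfc4 and Rfc5 had log2 fold changes of −0.14 ± 0.11, 0.26 ± 0.23, 0.33 ± 0.27 and 0.12 ± 0.12, and their groups overlapped. Of the exonic bases, 15.1% of Rfc2 lie opposite Lat2, 12.65% of Rfc4 opposite Eif4a2 and 10.69% of Rfc5 opposite Wsb2.

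The polymerase genes lay on both sides of 0, with a median of −0.02 over 4 genes. Pold1, the catalytic subunit of polymerase delta, had 9.79, 9.71 and 16.7 CPM in DKD and 9.72, 8.24 and 6.37 CPM in Control. DKD replicate 3 was the highest library, and the log2 fold change of 0.57 ± 0.27 (edgeR adjusted p = 0.263) was 0.27 without it. Pola1, which with primase starts each new strand, had 2.87, 3.69 and 3.53 CPM in DKD and 4.21, 4.81 and 3.59 CPM in Control, a log2 fold change of −0.32 ± 0.23 (edgeR adjusted p = 0.455). Here Control replicate 3 lay among the DKD libraries. Prim1, a primase subunit, and Pole, the catalytic subunit of polymerase epsilon, had log2 fold changes of −0.32 ± 0.24 and 0.28 ± 0.32.

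The genes that join Okazaki fragments were at or above their Control levels. Lig1 (ENSMUSG00000056394), the ligase that seals the fragments, had 8.04, 7.98 and 10.1 CPM in DKD and 6.96, 5.86 and 3.34 CPM in Control. The groups did not overlap, and Control replicate 3 was the lowest library. The log2 fold change was 0.69 ± 0.29 (edgeR adjusted p = 0.214), and it was 0.44 without that library. Fen1, the nuclease that trims the flap before ligation, had 7.58, 8.02 and 9.15 CPM in DKD and 7.79, 7.14 and 7.36 CPM in Control (log2 fold change 0.15 ± 0.16). Of the exonic bases of Fen1 84.2% lie opposite the predicted gene Gm10143, which had 0 to 62 counts per library against 507 to 653 for Fen1.

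In nucleotide supply, Rrm2 and Tk1 were higher in DKD without overlap, and Rrm1 and Tyms had fold changes near 0. Rrm2 (ENSMUSG00000020649), the regulated subunit of ribonucleotide reductase, had 6.75, 10.7 and 19.0 CPM in DKD and 5.46, 6.07 and 2.71 CPM in Control. DKD libraries differed among themselves more than in any other gene of this group, and DKD replicate 1 was just above the highest Control library. The means were 12.2 ± 6.27 CPM in DKD and 4.75 ± 1.79 CPM in Control, a log2 fold change of 1.36 ± 0.44 (edgeR adjusted p = 0.137, DESeq2 adjusted p = 0.0207), which was 0.88 without DKD replicate 3. Rrm1, the other subunit of the enzyme, had a log2 fold change of 0.13 ± 0.19. Tk1 (ENSMUSG00000025574), which recycles thymidine in S phase, had 12.1, 10.8 and 15.9 CPM in DKD and 7.21, 7.81 and 10.2 CPM in Control. The highest Control library was close to the lowest DKD library, and the log2 fold change was 0.62 ± 0.21 (edgeR adjusted p = 0.15), or 0.37 after removal of the length trend. Tyms, which makes thymidylate, had a log2 fold change of 0.20 ± 0.15.

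The checkpoint genes were low and variable. Chek1, the kinase that slows S phase when forks stall, had 0.747, 1.27 and 1.84 CPM in DKD and 1.18, 0.680 and 0.766 CPM in Control. Clspn, the adaptor through which Chek1 is activated, had 0.538, 0.887 and 1.86 CPM in DKD and 0.478, 0.630 and 0.0661 CPM in Control. Both overlapped between the groups, and Control replicate 3 held only 5 Clspn counts. The log2 fold changes were 0.55 ± 0.44 for Chek1 and 1.48 ± 0.81 for Clspn (edgeR adjusted p = 0.502 and 0.324), and leaving out Control replicate 3 gave Clspn 0.98, and leaving out DKD replicate 3 gave it 0.86 and Chek1 0.21.

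A wider list of 86 other replication genes, covering origin recognition, further polymerase and fork subunits, nucleotide enzymes, chromatin assembly, checkpoint and degradation factors, and the E2F and RB families, also held no gene past the threshold in edgeR. At an unadjusted p under 0.05, 13 were higher and 9 lower (25.6% of the list, against 22.6% of all genes). DESeq2 called 11 higher and 4 lower, where it called 7.46% of all genes higher and 6.2% lower. The median log2 fold change was 0.04, with 48 genes above 0 and 38 below. In 20 of the 86 (23.3%) every DKD library was above every Control library, and in 13 (15.1%) below, against 15.5% and 15.2% of all genes. Pold4, the smallest subunit of polymerase delta, had 35.7, 26.2 and 45.9 CPM in DKD and 15.8, 17.1 and 16.3 CPM in Control (log2 fold change 1.13 ± 0.20, edgeR adjusted p = 0.0519). Pold4 and Pold1 thus both had positive values, but Pold4 did not overlap between the groups and Pold1 did. Dbf4, the regulatory partner of the origin-firing kinase Cdc7, had 6.78, 5.33 and 12.3 CPM in DKD and 3.07, 3.68 and 2.63 CPM in Control (log2 fold change 1.38 ± 0.34, edgeR adjusted p = 0.0851). Rbl2, the pocket protein p130 that keeps E2F target genes silent in resting cells, had 36.8, 60.0 and 40.9 CPM in DKD and 78.5, 78.9 and 88.0 CPM in Control. All DKD libraries of Rbl2 were below all Control libraries, with a log2 fold change of −0.83 ± 0.19 (edgeR adjusted p = 0.0733). Of the exonic bases of Rbl2 20.97% lie opposite Gm45464. Asf1b, a histone chaperone at the fork, had a log2 fold change of 1.83 ± 0.52, and Dtl, which directs the destruction of Cdt1, one of 1.83 ± 0.52 (edgeR adjusted p = 0.105 and 0.108), both without overlap. Leaving out DKD replicate 3 gave Asf1b 1.19.

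The genes of mitosis and cytokinesis gave other values in the same libraries. All 36 genes of that list had every DKD library above every Control library, 36 had an unadjusted p under 0.05, and 6 passed the threshold in edgeR. Over all genes tested, the shares on the higher side were 15.5%, 11.8% and 0.725%. The median log2 fold change of the 36 mitosis genes was 2.54, with a range of 0.58 to 3.92. For the 38 replication genes it was 0.21, with a range of −0.69 to 1.62. No test of the difference between the lists was made, and both lists were chosen with earlier results of these data known. DESeq2 called 35 of the 36 mitosis genes higher, where it called 7.46% of all genes higher. Limma-voom called 0 of the 36, where it called 0.639% of all genes higher. Mki67, the marker of cycling cells whose promoter is printed above, rose to 19.7, 17.6 and 42.1 CPM in DKD, against 5.29, 5.30 and 2.80 CPM in Control (log2 fold change 2.57 ± 0.41, edgeR adjusted p = 0.0422). Cdca3, a regulator of entry into mitosis whose promoter is also printed above, rose by 2.98 ± 0.44 on the log2 scale (edgeR adjusted p = 0.0353). Birc5, Cenpf, Cdkn3 and Mad2l1 also passed, with log2 fold changes of 2.85, 2.71, 3.68 and 1.85. Top2a, the topoisomerase that untangles chromosomes and acts from S phase to mitosis, had 6.84, 10.2 and 29.2 CPM in DKD and 3.38, 4.08 and 1.78 CPM in Control, a log2 fold change of 2.32 ± 0.58 (edgeR adjusted p = 0.0869) that was 1.47 without DKD replicate 3. The number of calls was 6 without DKD replicate 2, 3 without Control replicate 3, and 0 without DKD replicate 1, DKD replicate 3, Control replicate 1 or Control replicate 2. DKD replicate 3 was the highest library in 35 of the 36 mitosis genes and in 26 of the 38 replication genes. Its median ratio to the other DKD libraries was 2.62 in the mitosis genes and 1.25 in the replication genes.

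**Figure D4:**
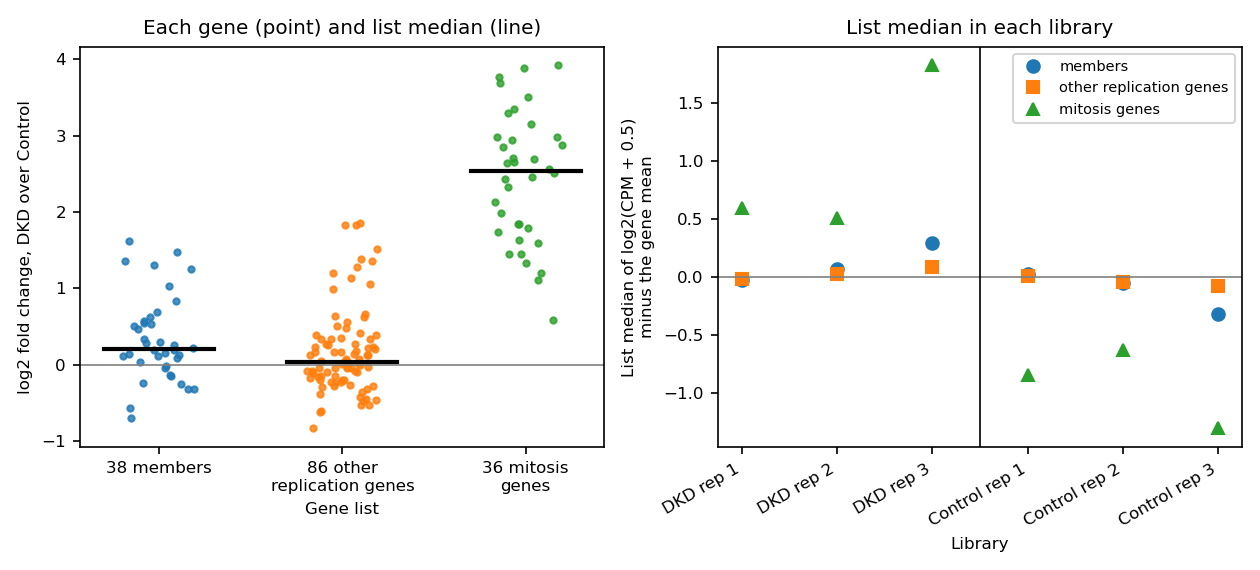
The 38 replication genes, the 86 other replication genes and the 36 mitosis genes. The left panel shows the log2 fold change (DKD over Control) of each gene, with a line at the list median. The right panel shows library values, DKD left and Control right. Each is the median over genes of log2(CPM + 0.5) minus the gene's mean over all 6 libraries. The mitosis genes ran from 0.50 to 1.83 in DKD and −1.31 to −0.63 in Control, and the 38 replication genes from −0.03 to 0.29 in DKD and −0.32 to 0.02 in Control.

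Some marker lists of the cell types in and around the glomerulus differed between the groups or set the same libraries apart. Proximal tubule markers, from outside the glomerulus, summed to 17540, 18610 and 9850 CPM in DKD libraries and to 18600, 20610 and 39240 CPM in Control libraries. DKD replicate 3, the highest library in most replication genes, thus had the lowest sum, and Control replicate 3, the lowest library in most replication genes, had the highest. The largest part of each sum was Kap, at 8620, 11060 and 4354 CPM in DKD and 7800, 9948 and 21110 CPM in Control. All 12 tubule markers had fold changes below 0, and 2 of them, Slc5a2 and Slc5a12, named after their values were seen, passed the threshold. Podocyte markers, all 12 of them above 0 in every library, summed to 438 to 575 CPM in DKD and 557 to 768 CPM in Control, with 2 of 12 above their Control level and no call. Endothelial markers summed to 349 to 593 CPM in DKD and 505 to 765 CPM in Control, with 10 of 10 fold changes below 0 and no call, and mesangial and smooth muscle markers to 450 to 519 CPM in DKD and 417 to 569 CPM in Control, with 1 of 10, Agtr1a, called lower. Parietal epithelial markers summed to 345 to 447 CPM in DKD and 213 to 302 CPM in Control, with 5 of 6 above Control and no call. In 1 of these 6, Krt8, the groups did not overlap, and without it the sums were 179 to 188 CPM in DKD and 104 to 180 CPM in Control, which overlapped. Markers of B, plasma and T lymphocytes summed to 55.2 to 118 CPM in DKD and 19.06 to 37.97 CPM in Control. Of these markers, 8 of 10 were above Control, with no call, and Ms4a1 was at 0 in 1 library. The plasma cell gene Jchain had 46.9 to 102 CPM in DKD and 8.51 to 24.6 CPM in Control. It made up most of the sum in every library except Control replicate 1. The other 9 markers summed to 8.29, 15.4 and 29.6 CPM in DKD and 10.6, 13.4 and 5.44 CPM in Control, which overlapped. Of all 10 markers, 3 (Jchain, Mzb1 and Cd79a) had every DKD library above every Control library, and 0 had every DKD library below. Over all genes tested, 15.5% were above and 15.2% below in this way. Kap, Krt8, Jchain, Mzb1 and Cd79a were singled out after their values were seen. Macrophage and neutrophil markers summed to 120 to 245 CPM in DKD and 85.2 to 176 CPM in Control, with 5 of 7 tested above Control, no call, and Ly6g and S100a8 at 0 in some libraries. Distal tubule and collecting duct markers summed to 4079 to 6541 CPM in DKD and 5152 to 6066 CPM in Control, with 4 of 9 above Control and no call. Erythroid markers summed to 177 to 887 CPM in DKD and 233 to 472 CPM in Control, with 3 of 3 tested above Control and no call. The part of any of these cell types in the values of the replication genes was not tested.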

How the data were processed

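RNA of isolated glomeruli was sequenced in 3 DKD and 3 Control libraries. Per the labels' protocols, libraries were made from poly(A) RNA with dUTP in the second strand and read from both ends. The submitters' processing notes name fastp, HISAT2, StringTie and edgeR with GRCm39, while versions, annotation and the use of strand in counting are not stated in the sources. What the authors deposited was a table of unnormalized whole-number counts for Ensembl genes. Values of 4 occurred 6267 times, against 3129 for 3, so the deposited counts may derive from coverage.

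Symbols, transcript lengths, overlaps and 31-base words came from a mouse annotation on GRCm38, matched by Ensembl ID (55141 matched, 260 did not). Promoter windows came from RefSeq on GRCm38.p6, the first window per gene, and 8 genes matched none, Gmnn among them. No coordinates are given for the counted genes, whose build differs.

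Genes were kept by filterByExpr (minimum count 10), scaled by TMM and compared by the edgeR 4.0.16 quasi-likelihood test (R 4.3.3), in a model holding the group alone. P-values were adjusted by Benjamini-Hochberg over 19717 genes, with 0.05 as the threshold. The biological coefficient of variation was 33.2%. Within each group, log CPM correlations between libraries were 0.954 to 0.980, and no library duplicated another. The procedure was run on simulated counts with the same spread for every gene and no library set apart. The data here differ from those counts, so that run does not speak for libraries that stand apart. The 38 genes and the other lists were chosen with earlier results of these data known. Genes were named by rule: replication genes past the threshold and the 2 with the smallest p per role, and of other lists those past the threshold or else the 1 with the smallest p, with Mki67 and Top2a always named. Some items that this rule takes are not reported here. The remaining replication genes are given by their fold changes or library values.

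Alternatives were RLE factors, library totals, a filter of 1 CPM in 3 libraries, no filter, DESeq2 1.42.0, limma-voom (limma 3.58.1), the replicate number as a block, an adjusted p of 0.1, each library left out in turn and, chosen after seeing the data, removal of a trend on transcript length (spline with 5 degrees of freedom).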

Additional observations from a re-analysis of the deposited data

How the results depend on the processing

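The direction of the fold change was the same in each of the 14 alternative settings that tested the gene for 28 of the 38 replication genes, E2f1, Ccne1, Gmnn, Rrm2, Tk1, Lig1, Mcm6, Mcm10 and Rfc1 among them. Calls depended on the tool and the filter. At least 1 CPM in 3 libraries gave 516 calls among 15046 genes, and 2 replication genes, 2 other replication genes and 13 mitosis genes were called higher. DESeq2 gave 2483 calls among 18167 genes, with 4 replication genes higher and 1 lower, 11 other replication genes higher and 4 lower, and 35 mitosis genes higher. An adjusted p of 0.1 gave 1478 calls among 19717 genes, with 3 of the 38 replication genes higher and 1 lower, 5 other replication genes higher and 1 lower, and 29 mitosis genes higher. Without a filter there were 56 calls, and 0 mitosis genes. Library totals in place of TMM moved the median of all genes to −0.13 and left 3 mitosis genes called, while the 38 replication genes had a median of 0.07, again above that of all genes. Limma-voom called 0 mitosis genes. Removal of the length trend called 16 mitosis genes. The cause of these shifts was not tested.

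Leaving out 1 library gave 1 to 386 calls over all genes, 0 to 6 mitosis genes higher, 0 to 2 other replication genes higher and 0 to 1 lower, and no replication gene among the 38. The lowest number, 1, was without Control replicate 1, and the highest, 386, without Control replicate 3. The median of the 38 genes ran from 0.09 to 0.34. Same-numbered libraries did not deviate together (correlations of −0.18, 0.07 and −0.22 for replicates 1 to 3). With the replicate number as a block, 0 genes and 0 mitosis genes were called by edgeR, 3322 genes had an unadjusted p under 0.05, and the smallest adjusted p of a replication gene was 0.182. Depth limits the low genes: Clspn, E2f8, Ccne1 and Cdc6 each had under 50 counts in at least 1 library.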

Other observations

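Within the 86 other replication genes, the counts per sublist were as follows, with no test between sublists. Over all genes tested, every DKD library was above every Control library in 15.5% and below in 15.2%. All 7 genes of chromatin assembly behind the fork had fold changes above 0, with a median log2 fold change of 0.27, and 4 of the 7 (57.1%) had every DKD library above every Control library. The one with the smallest p, Asf1b, had 1.57, 1.62 and 4.28 CPM in DKD and 0.885, 0.766 and 0.436 CPM in Control, so DKD replicate 3 alone was far above the rest. The list of further polymerase, clamp and fork subunits had 9 of 25 genes above 0 and 16 below, with a median of −0.04, and 3 genes without overlap above (12.0%) and 5 below Control (20.0%). Among 18 further E2F, RB and G1 cyclin genes, 12 were above 0 and 6 below, and the groups were apart in 6 genes above (33.3%) and 3 below Control (16.7%). None of these genes passed the threshold in edgeR, and 13 of the 86 were higher and 9 lower at an unadjusted p under 0.05.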
